A study of Mus musculus with 18 samples.

Results

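Mesp1, Mesp2, Mixl1 and Evx1 were followed in single cells of gastrulating mouse embryos, as 4 of the 22997 nuclear genes counted. They were chosen by name, as transcription factor genes of the primitive streak and of the nascent mesoderm that leaves it, and their counts were read in all cells with at least 2000 nuclear transcripts. These were 543 cells of 6 libraries at embryonic day (E) 6.75 and 429 cells of 11 libraries at E7.5. Mesp1 was found in 50 and 137 of these cells, Mesp2 in 23 and 48, Mixl1 in 123 and 112, and Evx1 in 129 and 156.

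All embryos were wild type C57BL/6, with no treatment and no targeted gene. At E6.75 the extraembryonic part was cut away, embryos were dissociated one by one, and cells were picked by hand for CEL-Seq2. The E7.5 embryos had been trimmed under the chorion, so that extraembryonic mesoderm was kept, those of 1 or 2 litters were pooled, and cells were sorted by flow cytometry for mCEL-Seq2, a small-volume form of the same method. Both methods count the 3′ ends of polyadenylated RNA with unique molecular identifiers (UMIs). Stage, way of collecting cells and protocol changed together and cannot be told apart. Which embryo a cell came from is not known here, so p-values measure the spread between libraries, which may share embryos or litters.

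During gastrulation, epiblast cells move into the primitive streak, lose their epithelial contacts and leave as mesoderm or definitive endoderm. Mixl1, a paired-like homeobox factor, is known from the streak and from its mesoderm and endoderm precursors. Evx1, a homeobox factor of the even-skipped type, marks the posterior streak. Mesp1 and Mesp2 are basic helix-loop-helix factors. Mesp1 is among the earliest genes of mesoderm leaving the streak, including precursors of the heart, and Mesp2 is best known for setting segment borders in presomitic mesoderm.

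Mesp1 and Mesp2 are neighbours in the genome. In GRCm38 (GENCODE vM21), Mesp1 (ENSMUSG00000030544) lies on the minus strand at chr7:79792241-79793788 and Mesp2 (ENSMUSG00000030543) on the plus strand at chr7:79810727-79813439, with 16938 bases and 0 annotated genes between them. Their transcripts, of 1275 and 1944 bases, share no run longer than 42 bases, and no run longer than 9 in the last 500 bases, where 3′ counting reads fall. Mixl1 (ENSMUSG00000026497) lies at chr1:180693043-180697034 on the minus strand. Evx1 (ENSMUSG00000005503) lies at chr6:52313498-52318378 on the plus strand and is overlapped over 1335 bases by the antisense gene Evx1os (ENSMUSG00000086126, chr6:52308389-52314832, minus strand). The genome build and the use of strand in the deposited counts are not given in the sources used here, so reads of Evx1 and Evx1os cannot be told apart where the genes overlap. By these coordinates the overlap lies at the 5′ end of both genes, while 3′ counting reads fall toward the other end. How many reads fell in the overlap was not counted.

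The start-site sequences are shown because T, whose product binds the T-box motif AGGTGT, was higher in cells with Mixl1 at both stages, as was Evx1, and at E7.5 Mesp1. Of the 4 genes, 3 had an entry in the RefSeq promoter table (GRCm38.p6). Printed are the bases of each entry before the GENCODE start, 5′ to 3′ on the gene's own strand. They lie at chr7:79793789-79793840 for Mesp1, chr7:79810477-79810726 for Mesp2 and chr6:52313248-52313497 for Evx1. Capitals mark AGGTGT on either strand.
Mesp1: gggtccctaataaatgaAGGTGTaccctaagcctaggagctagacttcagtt
Mesp2: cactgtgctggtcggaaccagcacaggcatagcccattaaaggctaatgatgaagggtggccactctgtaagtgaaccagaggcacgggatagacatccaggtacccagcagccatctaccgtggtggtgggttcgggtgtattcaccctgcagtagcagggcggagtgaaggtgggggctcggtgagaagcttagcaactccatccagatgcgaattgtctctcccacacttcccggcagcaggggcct
Evx1: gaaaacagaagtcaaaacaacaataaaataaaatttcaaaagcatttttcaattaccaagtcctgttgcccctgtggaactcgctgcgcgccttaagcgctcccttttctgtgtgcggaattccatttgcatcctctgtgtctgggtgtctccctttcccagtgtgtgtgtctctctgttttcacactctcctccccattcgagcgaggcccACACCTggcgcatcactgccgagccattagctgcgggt
The Mesp1 window of 52 bases, the first of its entry, held the motif 35 bases before the GENCODE start. Of all 32851 promoters, 2.65% held it in the first 52 bases of their entries. Those bases are the far upstream end of an entry, so in other genes they need not adjoin the start. The rest of the Mesp1 entry was not searched. The Evx1 window of 250 bases held it on the other strand, as ACACCT, 38 bases before the start, and the Mesp2 window did not hold it. Over 250 bases, 11.8% of all promoters held it. Of the other motifs searched on both strands, CTTTGA (TCF/LEF, 13.8% of all promoters over 250 bases), TAATTA (homeobox, 4.84%) and ATCCACA (FOXH1, 2.78%) were in none of the 3 windows. The E-box CANNTG (66.2%) was in the Mesp2 window 44 bases before the start, and in the Evx1 window at 2 places, 1 of which overlaps AGGTGT. The SMAD box CAGAC (42.2%) was in the Evx1 window at 111 bases. A match is a description of the letters, not a binding site.

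The 6 libraries at E6.75 gave 2933395 to 5493791 nuclear transcripts, with median depths of 22331 to 54686 per kept cell, and the 11 at E7.5 gave 518343 to 2627269, with medians of 18982 to 57140. An E6.75 library kept 85 to 96 of its 96 barcodes, and an E7.5 library 15 to 71. E7.5 replicate 5, with 3042 transcripts in all, had 0 kept cells. No kept barcode number was shared by 5 of 15 pairs of libraries within E6.75 and by 30 of 55 within E7.5. The others shared up to 86 and 49, as all libraries draw on 1 set of barcodes. Cells with each of the 4 genes were deeper than cells without it at both stages, with medians of 60689 against 36881 transcripts for Mesp1 at E6.75 and of 39597 against 26201 at E7.5.

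At E6.75 Mesp1 and Mesp2 were concentrated in 2 libraries, in which Mixl1 and Evx1 were also highest. Mesp1, in CPM (counts per 1000000 nuclear transcripts of a library's kept cells), was 0 in replicates 1_10, 1_11 and 2_12, 3.30 in replicate 2_9, 42.9 in 2_14 and 83.2 in 2_13. The 3 libraries without a Mesp1 transcript held 85, 89 and 85 cells. For counting error alone, 0 of these allows up to 3.53%, 3.37% and 3.53% of cells with a UMI, which does not bound expression below the depth of detection. Mesp2 was 11.1 CPM in replicate 2_13, 7.96 in 2_14 and 0 in the other 4. Both genes were thus found together in 2 libraries and otherwise almost not at all.

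Mixl1 was found in every E6.75 library. It was 1.46 and 2.98 CPM in replicates 1_11 and 1_10, 10.3 and 20.1 in 2_12 and 2_9, and 104.2 and 137.5 in 2_14 and 2_13. Evx1 had the narrowest range in fold, from 11.3 CPM in replicate 2_9 through 13.4, 17.2 and 21.3 in 2_12, 1_10 and 1_11 to 35.9 and 38.8 in 2_14 and 2_13. Replicates 2_13 and 2_14 were the highest for all 4 genes. The labels carry a first number, 1 or 2, whose meaning they do not give. In the 174 cells of the 2 libraries numbered 1, Mesp1 and Mesp2 were found in 0, Mixl1 in 9 and Evx1 in 39. In the 369 cells of the 4 libraries numbered 2 they were found in 50, 23, 114 and 90.

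At E7.5 all 4 genes were found in every library, except for Mixl1 in replicate 12. Mesp1 ran from 17.1 CPM (replicate 4) over a median of 56.2 to 213.4 (replicate 9). Mesp2 ran from 1.61 over 7.30 to 17.7 CPM. Mixl1 was 0 in replicate 12, with a median of 36.8 and a highest value of 141.7 CPM, and Evx1 ran from 6.43 (replicate 8) over 37.1 to 84.5 CPM. The E6.75 values of replicates 2_13 and 2_14 lay within the E7.5 range for every one of the 4 genes. For Mixl1 and Evx1 this held for every E6.75 library. For Mesp1, replicates 1_10, 1_11 and 2_12 (0 CPM) and 2_9 (3.30 CPM) lay under the lowest E7.5 library. For Mesp2 the same libraries, all at 0 CPM, lay under it.

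**Figure D1:**
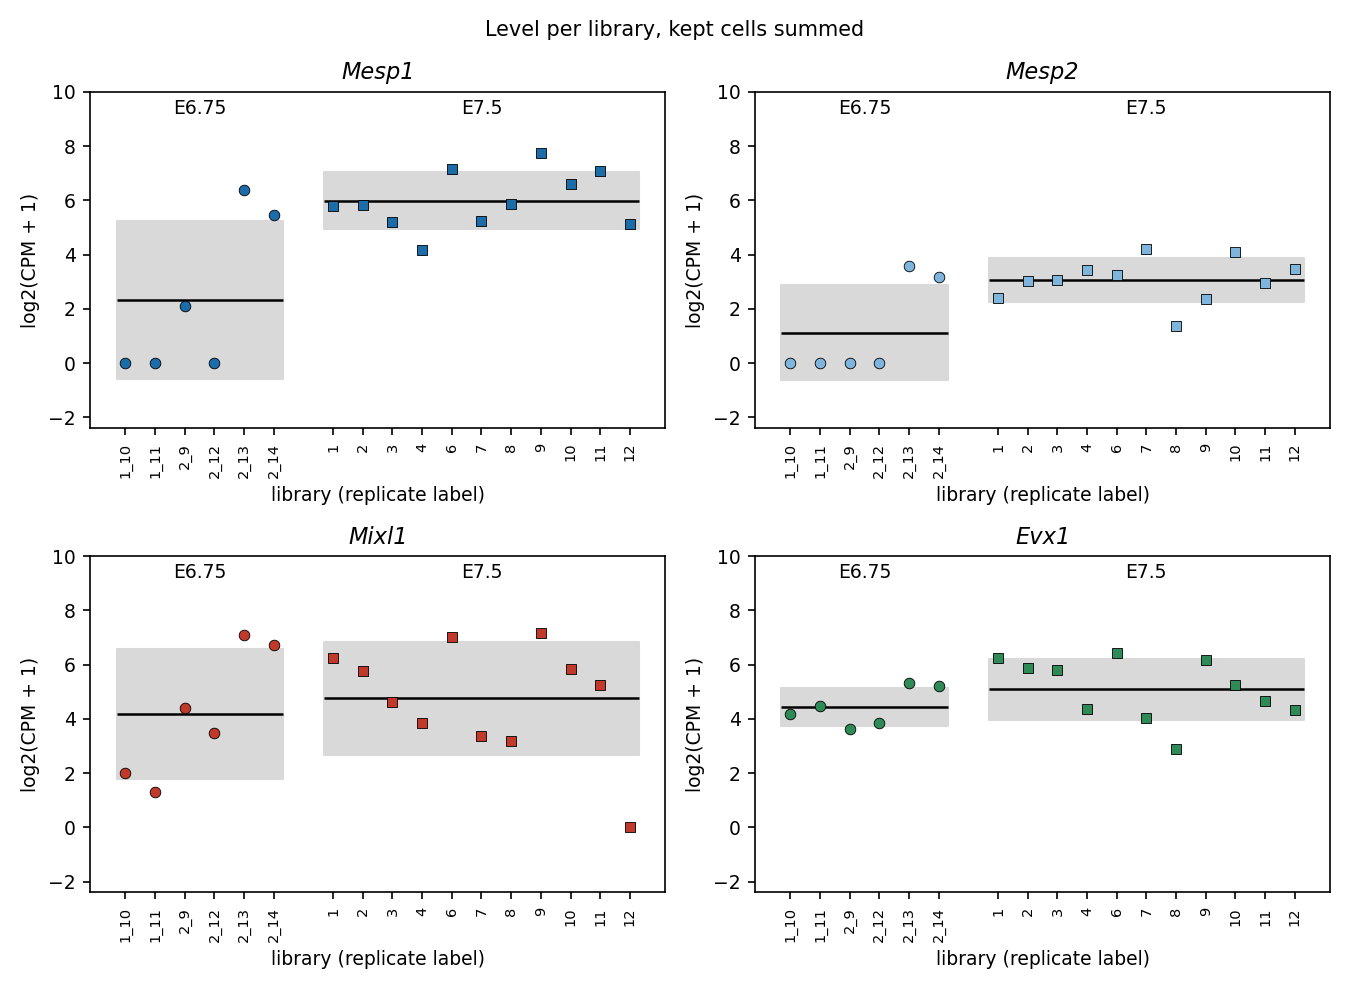
Level of each gene in each library, as log2(CPM + 1) over the kept cells, for 6 E6.75 libraries (circles) and 11 E7.5 libraries (squares), with the mean as a line and ± 1 SD as a grey band. Mesp1 and Mesp2 stand at 0 in 3 and 4 of the E6.75 libraries, and for all 4 genes the highest E6.75 libraries lie within the range of E7.5.

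Few cells carried most of the transcripts. At E6.75 the 10 cells with the most Mesp1 held 77.0% of its 686 UMIs, and those with the most Mesp2 held 79.4% of 102. The same share was 50.2% of 1401 UMIs for Mixl1 and 27.7% of 603 for Evx1. At E7.5 it was 33.5% of 872, 60.2% of 118, 42.9% of 632 and 23.4% of 628. The fullest cell held 114 UMIs of Mesp1 and 152 of Mixl1, both at E6.75, while the median cell with a gene held 1 to 3. A single UMI was all that was seen of Mesp1 in 17 of 50 cells at E6.75 and in 44 of 137 at E7.5, and of Mesp2 in 7 of 23 and 30 of 48.

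The first comparison asked whether library levels changed between the stages. None of the 4 genes passed the test, although their neighbours in the same programme did. The level, summed over cells, of Mesp1 was 21.6 ± 34.6 CPM at E6.75 (SD, n = 6) and 80.0 ± 60.4 at E7.5 (n = 11), a log2 difference of 1.67 (SE 0.74, edgeR adjusted p = 0.0777). Mesp2 was 3.18 ± 5.02 and 8.51 ± 4.90 CPM (1.21, SE 0.66, edgeR adjusted p = 0.154), Evx1 was 23.0 ± 11.7 and 42.3 ± 27.5 CPM (0.82, SE 0.37, edgeR adjusted p = 0.0824), and Mixl1 was 46.1 ± 59.2 and 49.8 ± 48.6 CPM (-0.03, SE 0.70, edgeR adjusted p = 0.982). Of 9984 genes tested, 3870 passed (38.8%), 20% of the tested genes as higher at E7.5 and 18.8% as lower. In such sums, fewer cells of a type and less RNA per cell cannot be told apart.

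Around them, 15 of 16 nascent mesoderm and epithelial-to-mesenchymal transition genes rose (median log2 difference 2.35, against 0.03 over all genes). Pdgfra, a growth factor receptor of mesoderm, rose by 3.44, Fn1 (fibronectin) by 2.69 and Snai1, a repressor of epithelial genes, by 1.12. Of 8 paraxial mesoderm genes 7 rose, of 9 cardiac and lateral mesoderm genes 8 rose, and of 12 epiblast genes 11 fell. Among 13 streak genes, 6 rose (Tbx6, Cdx1, Wnt3a, T, Sp5 and Sp8), with T higher by 2.63, and Fgf8 and Nodal fell. The spread of the 4 genes over the E6.75 libraries bore on the calls. Without replicate 2_13, Mesp1 (log2 difference 2.79, edgeR adjusted p = 0.00734), Mesp2 (2.08, 0.0245) and Evx1 (1.03, 0.0471) passed, and with the 4 E6.75 libraries numbered 2 alone Mesp1 differed by 1.12 (edgeR adjusted p = 0.230) and Mixl1 by -0.58 (0.529).

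Counting cells in place of transcripts gave a higher share of Mesp1 cells at E7.5. Each cell was thinned to 2000 transcripts, and the share of cells expected to keep at least 1 transcript was averaged over libraries. This share was 2.44% ± 3.85 (SD, n = 6) at E6.75 and 10.4% ± 5.73 (n = 11) at E7.5 for Mesp1 (exact two-sided permutation p = 0.00808, adjusted 0.0478). Without thinning, 9.21% and 31.9% of all cells held a UMI. Thinned shares of Evx1 were 4.11% ± 1.84 and 7.92% ± 5.0 (exact permutation, adjusted p = 0.240), those of Mesp2 0.630% ± 1.04 and 1.93% ± 1.93 (0.297), and those of Mixl1 5.64% ± 6.82 and 7.27% ± 6.08 (0.767). Of 9930 genes tested 17.1% passed, 7.94% as higher at E7.5 and 9.12% as lower. The call on Mesp1 was close to the threshold. It was lost when any 1 of 12 of the 17 libraries was left out, and with the E6.75 libraries numbered 2 alone (6.78 percentage points, adjusted exact permutation p = 0.227).

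Where the 4 genes were found was described over classes of cells, clustered within each stage without the 4 genes and named "-like" from other markers. No cluster at either stage was named for nascent mesoderm, so such cells lie in streak-like and mesoderm-like classes. The E6.75 streak-like cluster led by T had the streak markers T, Sp5, Fst and Wnt3 among its leading genes. It had the nascent mesoderm markers Snai1, Apln, Pdgfra and Frzb there as well. Its streak-like name thus does not set it apart from nascent mesoderm. At E6.75 the 124 streak-like cells held most of the signal. They held Evx1 in 85 cells (68.5%) at 65.8 ± 24.6 CPM (SD over libraries), Mixl1 in 64 (51.6%) at 125.7 ± 149 CPM, Mesp1 in 29 (23.4%) at 58.0 ± 93.1 CPM and Mesp2 in 20 (16.1%) at 8.70 ± 13.8 CPM. The 194 epiblast-like cells held Evx1 in 17 cells (3.39 ± 1.97 CPM), Mixl1 in 13 (3.33 ± 3.79 CPM), Mesp1 in 9 (2.53 ± 4.18 CPM) and Mesp2 in 1.

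Mixl1 was also found in visceral endoderm-like cells, the outer layer of the embryo, at E6.75. Of these 40 cells, 16 (40.0%) held it, at 44.4 ± 25.5 CPM, and after thinning the share was 8.32%, against 19.1% in streak-like and 1.04% in epiblast-like cells. Evx1 was in 7 of the 40 (18.9 ± 17.2 CPM, thinned 2.76%), Mesp1 in 1 and Mesp2 in 0, which allows up to 7.5%. The 2 homeobox genes were thus seen in a class outside the mesoderm path, and the 2 Mesp genes almost not. The visceral endoderm-like class had a median depth of 24062 transcripts, under the 39754 of epiblast-like and 54490 of streak-like cells.

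Within the E6.75 streak-like class, the genes divided by cluster. A cluster of 46 cells led by T, Sp5, Cdh11 and Snai1 held all 4 at their highest for the stage: Mixl1 in 44 cells (95.7%, 373 ± 150 CPM), Evx1 in 37 (80.4%, 114 ± 17.1 CPM), Mesp1 in 27 (58.7%, 176 ± 135 CPM) and Mesp2 in 20 (43.5%, 25.8 ± 22.6 CPM). A second cluster, of 40 cells led by Fosb, Cxcl12 and Pim1, held Evx1 in 29 cells (49.8 ± 21.8 CPM) but Mixl1 in 5, Mesp1 in 1 and Mesp2 in 0. The third, of 38 cells led by Foxa2, Nanog, Cxcl12, Axin2 and Eomes, held Evx1 in 19 (30.9 ± 13.4 CPM), Mixl1 in 15 (13.5 ± 6.79 CPM), Mesp1 in 1 and Mesp2 in 0. Evx1 was thus present in all 3, and the other 3 genes lay mainly in the first. The means and SDs cover libraries with at least 3 cells of the cluster, which were 3, 2 and 4 libraries in turn. A single library gave 52.2%, 57.5% and 34.2% of the cells. The part of the library in this division was not tested.

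At E7.5 the 4 genes spread differently over classes. Mesp1 was in 57 of 77 paraxial mesoderm-like cells (74.0%, 159 ± 55.9 CPM), 35 of 89 streak-like cells (39.3%, 155 ± 170 CPM) and 29 of 65 lateral and extraembryonic mesoderm-like cells (44.6%, 119 ± 104 CPM). The means of these 3 classes lay within 1 SD of each other, but the streak-like value joined 2 unlike clusters, of 23 shallow cells at 547 ± 245 CPM and of 66 cells at 33.4 ± 33 CPM. In 119 epiblast-like cells it was in 10 (2.68 ± 1.78 CPM), and it was in 1 of 15 endoderm-like and 1 of 16 blood-like cells. Mesp2 was in 26 of 77 paraxial mesoderm-like cells (33.8%, 29.9 ± 24.6 CPM), 13 streak-like cells (14.6%, 12.7 ± 14.3 CPM) and 5 lateral ones (7.69%, 3.16 ± 3.86 CPM).

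The homeobox genes were in the largest shares of cells in the streak-like class. Mixl1 was in 51 of 89 streak-like cells (57.3%, 126.1 ± 103 CPM), 19 lateral mesoderm-like cells (29.2%, 51.0 ± 37.8 CPM) and 21 paraxial ones (27.3%, 29.7 ± 32.2 CPM), and in 0 of 15 endoderm-like cells, which allows up to 20%. Evx1 was in 58 streak-like cells (65.2%, 94.2 ± 63.0 CPM), 36 lateral ones (55.4%, 79.7 ± 30.1 CPM), 24 paraxial ones (31.2%, 33.5 ± 46.6 CPM) and 20 epiblast-like ones (12.3 ± 9.91 CPM). After thinning, the order of classes for Mixl1 was 19.5% (streak-like), 7.58% (an unnamed class of 32 cells), 5.03% (lateral) and 4.74% (paraxial), and for Evx1 it was 17.6% (streak-like), 11% (lateral), 7.89% (node-like, 10 cells), 6.27% (paraxial), 3.91% (unnamed) and 3.51% (epiblast-like).

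**Figure D2:**
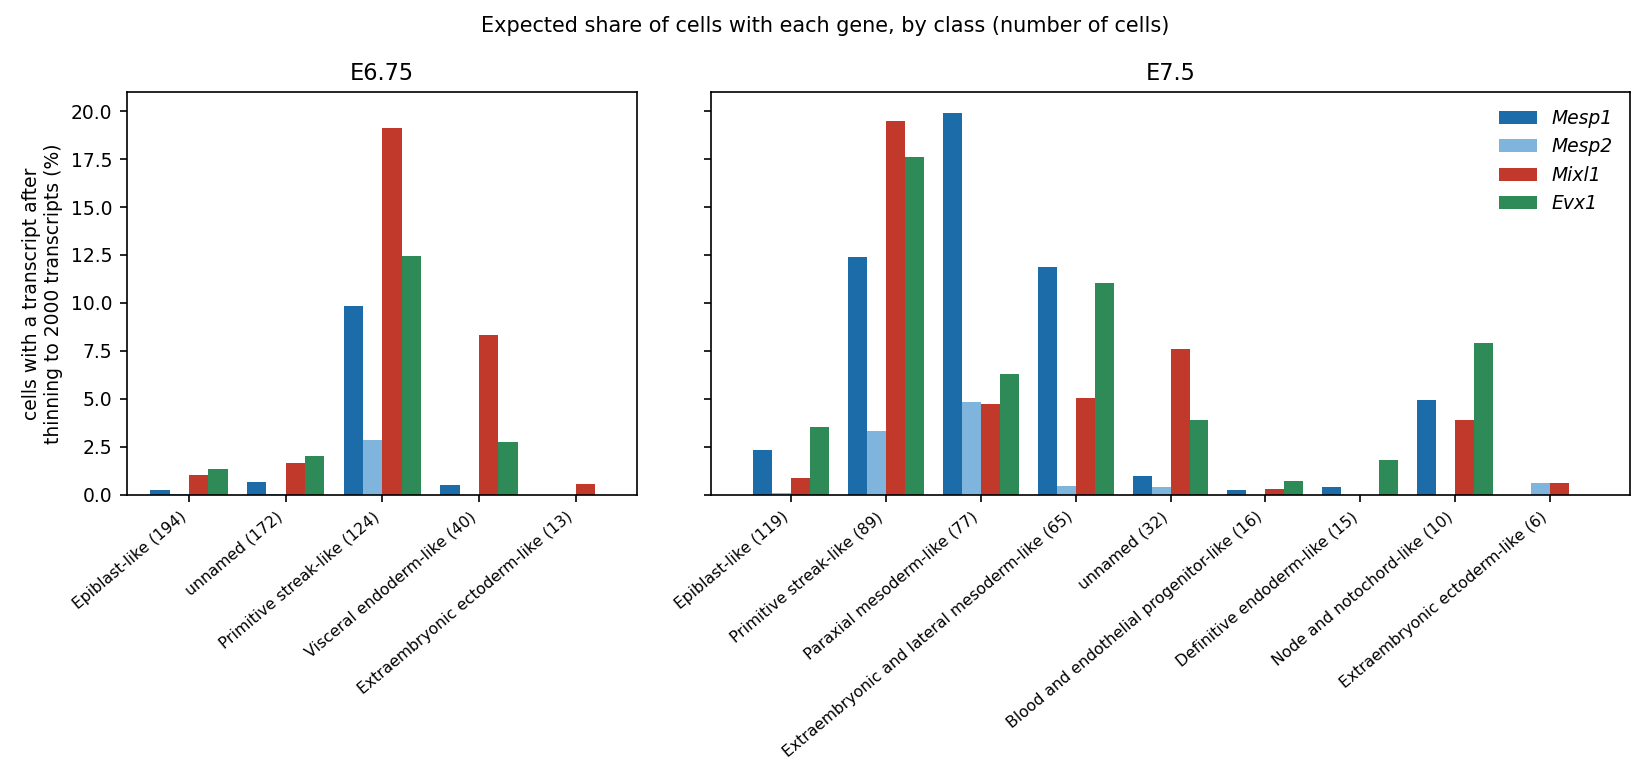
Percent of cells expected to hold each gene after thinning every cell to 2000 transcripts, as bars by class of cells (number of cells in brackets), with E6.75 and E7.5 in separate panels. At E6.75 Mixl1 reaches 19.1% in streak-like and 8.32% in visceral endoderm-like cells, and at E7.5 the highest class is paraxial mesoderm-like for Mesp1 (19.9%) and Mesp2 (4.81%) and streak-like for Mixl1 (19.5%) and Evx1 (17.6%).

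Clusters at E7.5 separated the genes further. In 44 cells led by the paraxial factors Foxc2, Alx1, Twist1 and Foxc1, Mesp1 was in 33 (152 ± 80.0 CPM) and Mixl1 in 5 (13.9 ± 24.4 CPM) with Evx1 in 8 (8.40 ± 10.5 CPM). In 33 cells led by Aldh1a2, Tbx6 and Dll1, genes of presomitic mesoderm, Mesp1 was in 24 (162 ± 50.7 CPM) and Mixl1 and Evx1 in 16 each (96.1 ± 90.5 and 123 ± 124 CPM). Mesp2 was in 13 cells of each of these clusters (28.4 ± 28.1 and 20.9 ± 10.0 CPM). In 66 cells led by Nkx1-2, Cdx1, T and Wnt8a, Evx1 was in 46 (69.7%, 108 ± 54.0 CPM), Mixl1 in 33 (77.9 ± 57.8 CPM) and Mesp1 in 22 (33.4 ± 33 CPM). The highest Mesp1 and Mixl1 levels, 547 ± 245 and 308 ± 186 CPM, were in a cluster of 23 cells led by Tdgf1, Eomes, Lefty2 and Lhx1, whose median depth was 0.240 of that of its libraries. Mesp2 was in 5 of these 23 cells. Its mean over libraries there, 34.7 ± 26.8 CPM, was also the highest of the clusters. Pooled over cells, however, Mesp2 was 25.7 CPM there and 39.4 in the cluster led by Foxc2. The 23 cells are shallow, and their levels rest on few transcripts each.

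Overlap was then counted in cells that were not visceral endoderm-like or extraembryonic ectoderm-like, 490 at E6.75 and 423 at E7.5. At E6.75, 313 of these (63.9%) held none of the 4 genes, 62 held Evx1 alone, 35 Mixl1 alone, 29 Mixl1 with Evx1, 13 Mesp1 with both, 16 all 4 genes, 8 Mesp1 alone, and 0 Mesp1 with Evx1 but without Mixl1. At E7.5, 188 (44.4%) held none, 48 Evx1 alone, 18 Mixl1 alone, 21 Mixl1 with Evx1, 34 Mesp1 with both, 21 all 4 and 36 Mesp1 alone. Mesp1 with Evx1 but without Mixl1 was seen in 24 cells without Mesp2 and in 2 with it. Most Mesp1 cells at E6.75 also held Mixl1, 40 of 49 (81.6%, exact binomial 95% interval 68.0% to 91.2%), and 66 of 137 did at E7.5 (48.2%, 39.6% to 56.9%). These intervals cover counting error only, and the difference between these shares was not tested over libraries. The share of Mesp1 cells with Evx1 was 59.2% (29 of 49) and 59.1% (81 of 137). Of Mesp2 cells, 21 of 23 (91.3%) and 36 of 47 (76.6%) held Mesp1.

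Deeper cells show any pair of genes more often, so the number of cells with both was set against that expected if the genes were independent within a library and within 3 strata of depth in it. Classes of cells were not separated, so genes found in the same classes can exceed this expectation. The part of the mix of classes was not tested, and pairs of other genes were not counted. At E7.5, 4 of the 6 pairs were found together more often than expected after adjustment over 12 tests (6 pairs at 2 stages). Mesp1 and Mesp2 were together in 36 cells against 19.2 expected, a mean log2 ratio of 0.77 ± 0.41 (SD over 11 libraries), above 0 in 11 of 11 (exact sign-flip permutation p = 0.000977, the smallest possible, adjusted 0.0117). Mixl1 and Evx1 were together in 81 cells against 52.8 (0.67 ± 0.46, 10 of 10 libraries, exact permutation p = 0.00195, the smallest possible, adjusted 0.0117). Mesp1 was found with Mixl1 in 66 cells against 47.9 (0.52 ± 0.39, 8 of 10 libraries, exact permutation, adjusted p = 0.0234) and with Evx1 in 81 against 63.5 (0.40 ± 0.37, 9 of 11 libraries, adjusted p = 0.0195).

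Mesp2 with either homeobox gene did not pass at E7.5. It was found with Mixl1 in 31 cells against 16.0 expected (0.55 ± 0.78, 8 of 10 libraries, exact permutation, adjusted p = 0.113) and with Evx1 in 29 against 20.4 (0.26 ± 0.65, 7 of 11 libraries, adjusted p = 0.333). At E6.75 too few libraries held the Mesp genes for the test to pass. Mixl1 and Evx1 were together in 59 cells against 34.8 (0.85 ± 0.20, 6 of 6 libraries, exact permutation p = 0.0312, the smallest possible, adjusted 0.075). Mesp1 was with Mixl1 in 40 cells against 22.9 and with Evx1 in 29 against 16.5 over 3 libraries, where an exact p cannot go below 0.25, and with Mesp2 in 21 against 6.04 over 2 libraries, where it cannot go below 0.5. Between the stages no pair's ratio differed after adjustment over 8 tests (lowest adjusted permutation p = 0.187). For Mesp1 with Mesp2 the difference, E7.5 minus E6.75, was -0.90 (permutation p = 0.0256), for Mesp1 with Evx1 -0.54 (p = 0.0467) and for Mesp1 with Mixl1 -0.48 (p = 0.101) before that adjustment. After thinning to 2000 transcripts few cells kept both genes of a pair (1 for Mesp1 with Mesp2 and 7 for Mesp1 with Mixl1 at E7.5) and no pair passed at that depth.

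**Figure D3:**
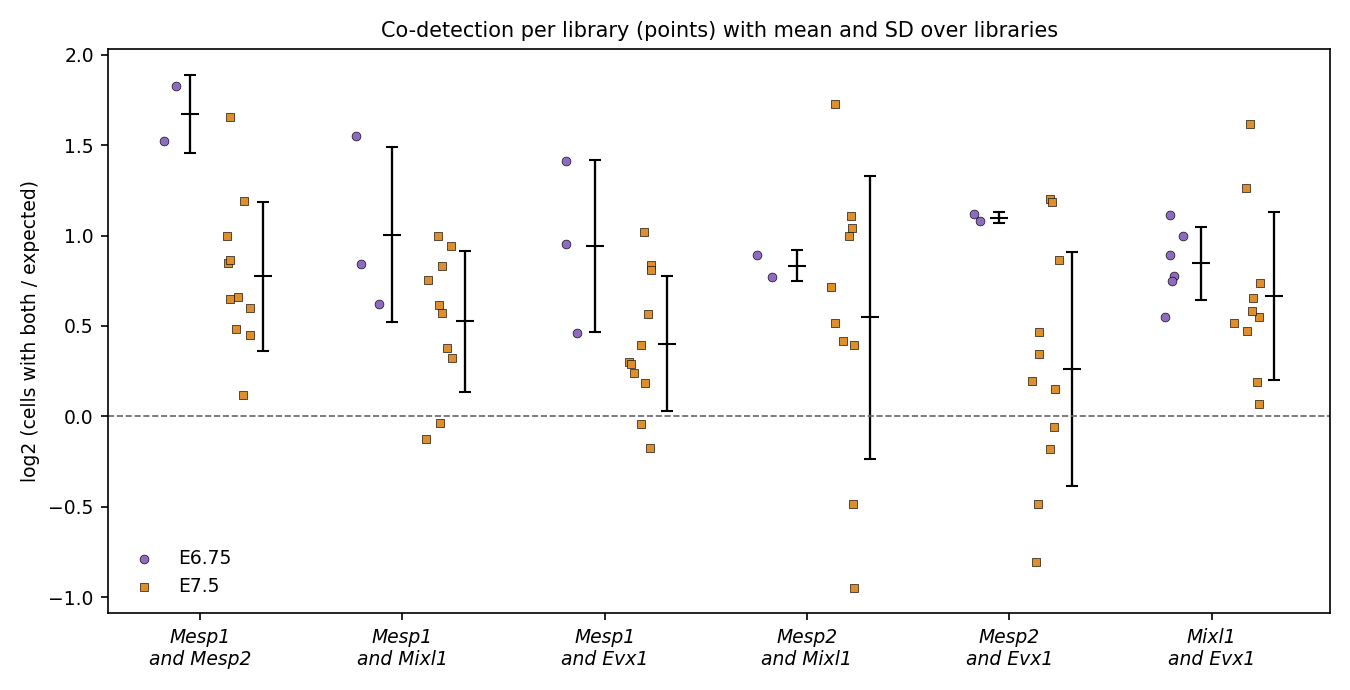
Log2 ratio of observed to expected cells holding both genes of a pair (0.5 added to each), with 1 point per library and the mean ± SD beside them, at E6.75 and E7.5. Mesp1 with Mesp2 at E7.5 and Mixl1 with Evx1 at both stages lie above 0 in every library tested (11, 10 and 6).

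Cells with a Mixl1 transcript were next compared with cells of the same library without one, to see which genes accompany it. At E6.75, Evx1 was higher in Mixl1 cells in 6 of 6 libraries, some with few such cells. Mixl1 cells numbered 3 in replicate 1_10, 3 in 1_11, 5 in 2_12, 11 in 2_9, 37 in 2_14 and 46 in 2_13. With against without Mixl1 it was 85.8 and 11.9 CPM in replicate 1_10, 61.9 and 20.4 in 1_11, 33 and 3.71 in 2_9, 36.6 and 12 in 2_12, 66.0 and 5.28 in 2_13, and 71.2 and 9.40 in 2_14. The lowest value with Mixl1 exceeded the highest without. The log2 difference was 2.67 (SE 0.22, edgeR adjusted p = 4.22e-10). Of 9706 genes, 310 passed (3.19%), 1.7% of those tested as higher and 1.49% as lower. Mesp1 and Mesp2 did not pass the filter on low counts and were not tested there. In the 3 libraries that held it, Mesp1 was 13.9 CPM with Mixl1 and 0.412 without in replicate 2_9, 153 and 1.92 in 2_13, and 101.4 and 2.09 in 2_14. Its summed transcripts thus lay almost wholly in Mixl1 cells of those libraries, while by cells 40 of 49 with Mesp1 (81.6%) also held Mixl1. At E7.5 Evx1 was again higher with Mixl1 in 9 of 9 libraries, with 6 to 23 Mixl1 cells in each. Evx1 lay between 33.2 and 209.6 CPM with Mixl1 and between 6.22 and 48.4 without (99.9 ± 55.1 against 21.4 ± 14.8, log2 difference 2.27, SE 0.22, edgeR adjusted p = 8.24e-06).

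Mesp1 also rose in Mixl1 cells at E7.5, where its counts allowed the test. It lay between 34.8 and 354.7 CPM with Mixl1 and between 10.6 and 103.3 without (163 ± 116 against 40.8 ± 29.8, log2 difference 2.07, SE 0.27, edgeR adjusted p = 3.04e-04). It was higher in 9 of 9 libraries, though by little in replicate 10 (105.7 against 103.3 CPM). Both members tested thus passed, where 137 of 6644 genes passed (2.06%), 1.2% as higher and 0.858% as lower. The difference between the stages in the log2 ratio of Evx1, E7.5 minus E6.75, was -0.24 and did not pass (permutation p = 0.539, adjusted 0.71).

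**Figure D4:**
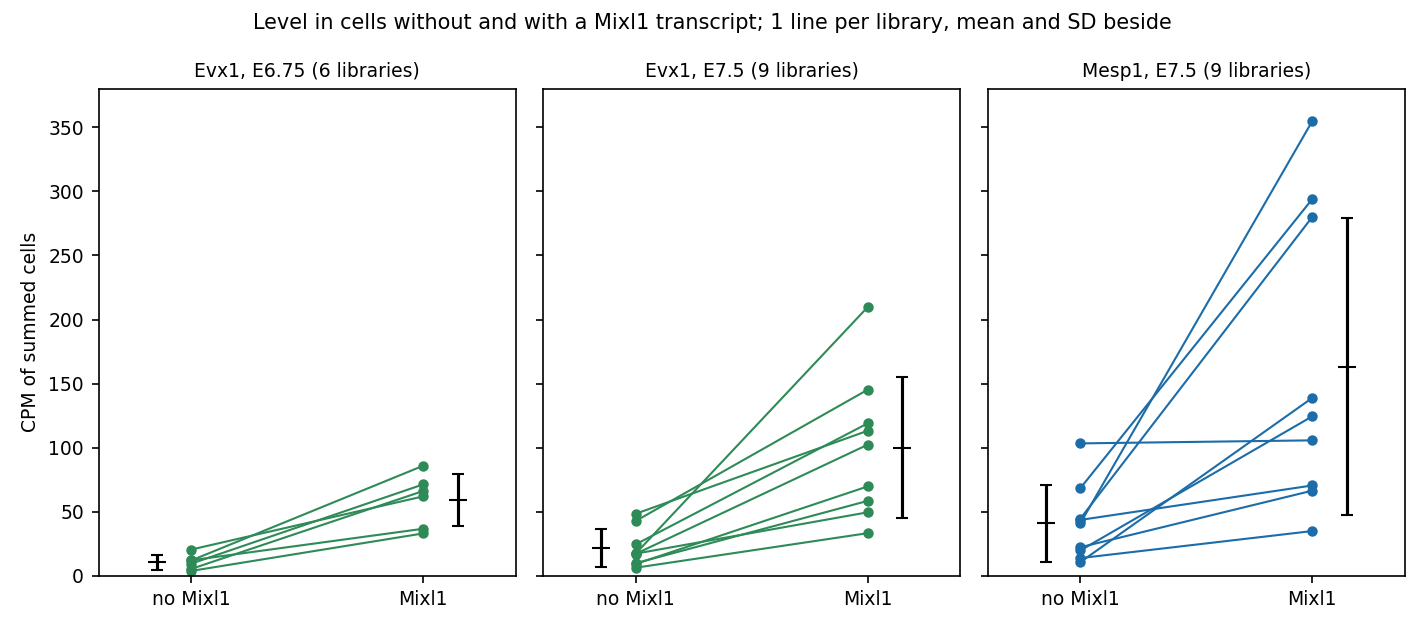
Level in CPM in cells without and with a Mixl1 transcript, with lines joining the same library and the mean ± SD beside them, for Evx1 at E6.75 (6 libraries), Evx1 at E7.5 (9) and Mesp1 at E7.5 (9). Every line rises, and the Mesp1 line of replicate 10 is nearly flat (103.3 to 105.7 CPM).

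Streak genes rose with Mixl1 at both stages. At E6.75, 9 of 11 did (median log2 difference 1.96, against -0.01 over all genes): T, the T-box factor of the streak, by 4.44 (209.0 ± 100.4 against 9.48 ± 3.80 CPM, SE 0.16, edgeR adjusted p = 3.10e-19), the Wnt target Sp5 by 3.96, Lhx1 by 3.78, Wnt3 by 2.14 and Eomes, a T-box factor of mesoderm and endoderm, by 1.96. Of 9 nascent mesoderm genes 7 rose, among them Frzb, a Wnt inhibitor, by 3.20, the cadherin Cdh11 by 3.17 and Snai1 by 2.46. Of 3 endoderm genes tested, the factor Foxa2 rose (3.35) and Cldn6 fell. Of 4 cardiac and lateral genes tested, 1 rose (Gata4, 3.25). Of 12 epiblast genes 7 fell and Nanog rose (0.85). Other genes with the largest rises were Fst (2.50), which binds activin, Rreb1 (2.45) and Tgfbr3 (1.99). The largest falls were those of Slc35d3 (-1.57), Dppa4 (-1.53), Mt2 (-1.18), Pou3f1 (-1.06), Utf1 (-1.03) and Nptx2 (-0.98). Utf1, Dppa4 and Pou3f1 are epiblast genes.

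At E7.5, 7 of 8 streak genes rose (median 1.62), led by T (2.35), Tdgf1, the Nodal co-receptor (2.27), and Tbx6 (1.94). Only 1 of 15 nascent mesoderm genes did (Snai1, 1.20), with 1 of 6 paraxial genes (Hes7, of the segmentation clock, 2.04) and 0 of 7 cardiac and lateral genes. Among epiblast genes Pou5f1 rose (0.51), and Otx2 (-1.44), Utf1 (-1.40), Sox2 (-1.35) and Pou3f1 (-1.31) fell, of 11. Among genes with the same sign in every library, the largest rises were those of Evx1os (2.53), which overlaps Evx1, of Evx1 and Mesp1, and then of Eomes (1.57, 250 against 77.7 CPM), Rftn1 (1.56) and Dusp6, which dampens FGF signalling (1.53). The lowest were the Wnt inhibitor Sfrp1 (-2.56), Irx3 (-1.83), the keratins Krt8 (-1.74) and Krt18 (-1.71), Irx5 (-1.43) and Gprc5c (-1.20). Of the signalling genes, 2 of 6 rose at E6.75 and 2 of 4 at E7.5, among them Axin2, a target of Wnt signalling, by 1.88 and 0.95.

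Depth and other cells moved with these gates. Mixl1 cells were deeper in 6 of 6 libraries at E6.75 (medians of 39894 to 72495 against 16757 to 55297 transcripts) and in 8 of 9 at E7.5 (20873 to 72758 against 5925 to 40445). Summed node markers ran from 0 to 260 CPM with Mixl1 and from 4.15 to 40.1 without at E6.75, visceral endoderm markers from 0 to 74.8 and from 10.8 to 152.0, and neural ectoderm markers from 510 to 944 and from 909 to 1236. At E7.5 neural ectoderm markers ran from 134 to 458 and from 272 to 983, and definitive endoderm markers from 67.3 to 552 (median 136) and from 121 to 620 (median 362). Their part in the result was not tested. Without replicate 2_13, 153 genes passed at E6.75, and without 2_14, 180. Without replicate 2 at E7.5, 79 passed in place of 137.

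The fourth comparison set E7.5 cells with Mesp1 but no Mixl1 (3 to 16 per library) against cells with Mixl1 but no Mesp1 (3 to 9) in 8 libraries. Foxc2, Lefty2 and Twist1 were higher in the Mesp1 cells, and 4 of 6 streak genes and 5 of 6 epiblast genes were higher in the Mixl1 cells. Foxc2, a forkhead factor of paraxial mesoderm, was 135 ± 47.6 against 2.65 ± 5.0 CPM (log2 difference 4.67, SE 0.42, edgeR adjusted p = 1.13e-07). Lefty2, a Nodal inhibitor of nascent mesoderm, was 279 against 39.7 CPM (3.92) and Twist1, a factor of mesenchyme, 146 against 17.0 CPM (3.09). Crabp1 (2.97), Pcdh19 (2.95) and Asb4 (2.74) were also among the highest. Apln, the apelin peptide (38.3 against 153 CPM, -2.04), Nanog (29.6 against 115 CPM, -2.02), Dusp6 (-1.98), Dab1 (-1.51), Plekhf2 (-1.45) and Fam169a (-1.22) were the lowest.

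By list, 4 of 6 streak genes were lower in Mesp1 cells without Mixl1 (T by -1.99, Tdgf1 -1.88, Eomes -1.65, Sp5 -1.50), as were 5 of 6 epiblast genes, including Cdh1, the epithelial cadherin (-2.13). Of 11 nascent mesoderm genes 3 were higher (Lefty2, Pdgfra by 2.15, Fn1 by 1.64), as were 2 of 2 paraxial genes (Foxc2, and Epha4 by 1.11) and 2 of 3 cardiac and lateral ones (Gata6 by 2.13, Bmp4 by 1.48). Of 3984 genes, 115 passed (2.89%), 1.38% as higher and 1.51% as lower. Evx1 was not tested there for its low counts. Median depths by library ran from 20784 to 81177 transcripts in the Mesp1 cells and from 4058 to 92166.5 in the Mixl1 cells. The lowest was that of replicate 9, whose 3 Mixl1 cells held 19211 transcripts in all, so a gene at a low level can be missed there. The part of depth was not tested. Markers of lateral and extraembryonic mesoderm summed to 162 to 1077 CPM in the Mesp1 cells (median 595) and to 19.4 to 610 (median 71.7) in the Mixl1 cells. Those of paraxial mesoderm summed to 644 to 2141 (median 776) and 382 to 2483 (median 1012), and those of definitive endoderm to 36.8 to 429 (median 106) and 104 to 895 (median 231). Their part in the result was not tested. Without replicate 1, 68 genes passed.

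Against cells with Evx1 but no Mesp1 (3 to 19 per library, 9 libraries), Mesp1 cells without Evx1 (3 to 11) had higher Lefty2 and Foxc1 and lower Cdh1. This comparison shares Mesp1 cells with the one before, so the 2 are not independent. Lefty2 was 185 ± 89.8 against 3.92 ± 4.81 CPM (log2 difference 5.26, SE 0.32, edgeR adjusted p = 2.76e-10), Foxc1 138 against 6.24 CPM (4.56) and Ifitm1 654 against 152 CPM (2.26), and Twist1 (3.58), Rasgrp3 (2.74) and Crabp1 (2.74) also rose. Cdh1 fell from 272 to 63.4 CPM (-2.33), with Pim2 (-2.17), Unc5b (-2.05), Plekhf2 (-1.66), Wfdc2 (-1.62) and Pls3 (-1.27). Of 3 streak genes 0 passed. Of 8 nascent mesoderm genes 4 rose (Lefty2, Pdgfra by 2.25, Fn1 by 1.82, Cdh2 by 1.1), of 2 paraxial genes 2, of 4 epiblast genes 3 fell, and Lef1, a Wnt effector, rose by 1.54. Of 3245 genes, 99 passed (3.05%), 1.39% as higher and 1.66% as lower. Median depths by library ran from 11869 to 78600 transcripts in the Mesp1 cells and from 4058 to 89198 in the Evx1 cells. In replicate 9 the 3 Evx1 cells held 13262 transcripts in all, so a gene at a low level can be missed there. The part of depth was not tested. Summed visceral endoderm markers ran from 0 to 42.0 CPM (median 4.94) in the Mesp1 cells and from 0 to 999.8 (7.66) in the Evx1 cells. Node markers ran from 0 to 206 (8.40) and from 22.9 to 204 (102), and definitive endoderm markers from 29.6 to 631 (124) and from 38.7 to 1426 (347). Their part in the result was not tested.

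**Figure D5:**
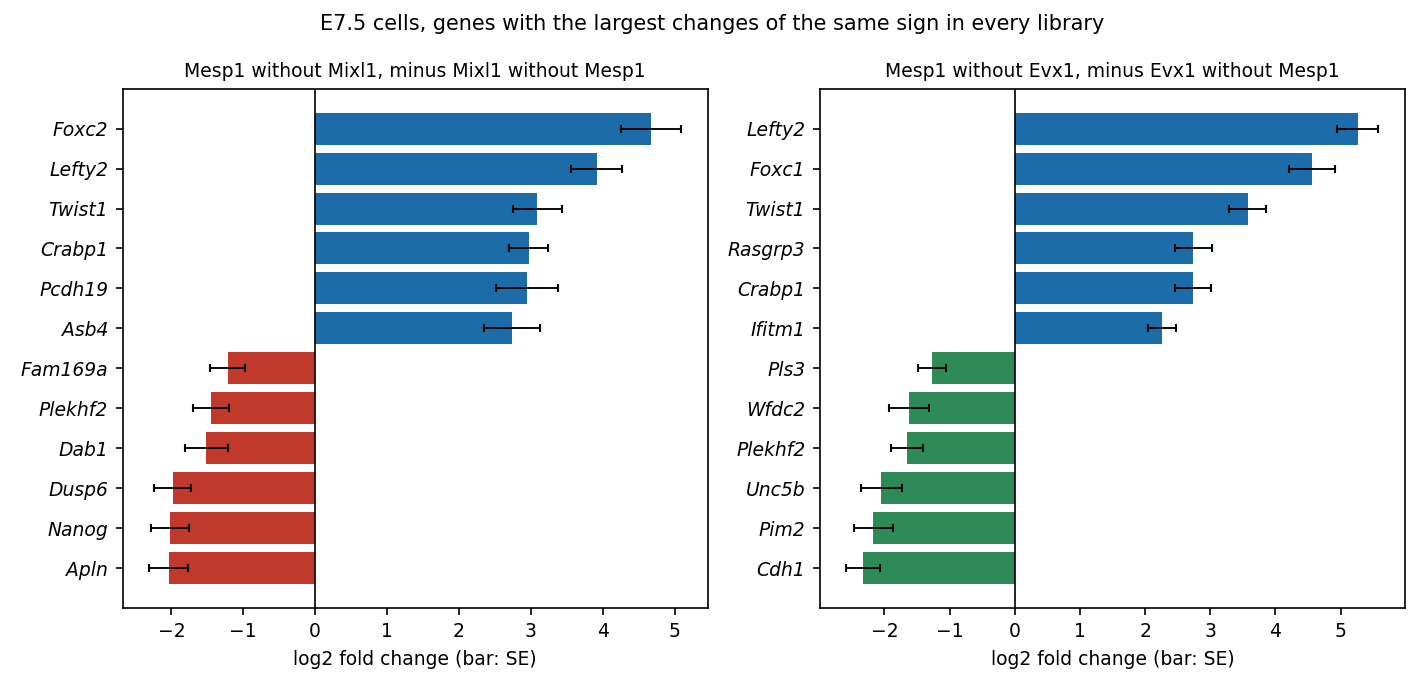
Log2 difference ± SE of the 12 genes named in each of the 2 comparisons at E7.5, Mesp1 cells without Mixl1 against Mixl1 cells without Mesp1 and Mesp1 cells without Evx1 against Evx1 cells without Mesp1. Twist1, Lefty2 and Crabp1 are among the highest genes in both, and Plekhf2 is among the lowest in both.

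The fifth comparison asked what differs between E7.5 Mesp1 cells with and without Mesp2. Mesp1 itself was higher in cells that held both. With against without Mesp2 it was 129.1 and 94.0 CPM in replicate 1, 248.7 and 90.3 in replicate 2, 224.6 and 60.6 in replicate 3, 85.1 and 258.3 in replicate 4, 523.4 and 193.6 in replicate 6, 183.1 and 78.1 in replicate 7, and 282.7 and 129.3 in replicate 10. It was higher in 6 of 7 libraries, and replicate 4 went the other way. A library held 3 to 8 cells with Mesp2 and 4 to 24 without. In replicate 4 these were 3 cells with 105849 transcripts in all and 4 cells with 54234. The log2 difference was 1.07 (SE 0.23, edgeR adjusted p = 0.0397), and the call was lost without any 1 of 6 of the 7 libraries, with DESeq2 (0.97, adjusted p = 0.187) and without the library as a block (0.99, edgeR adjusted p = 0.468). Of 3965 genes, 24 passed (0.605%), 0.177% as higher and 0.429% as lower.

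Mixl1 (119 ± 107 against 47.7 ± 44.8 CPM, log2 difference 1.26, edgeR adjusted p = 0.244) and Evx1 (105 against 68.7 CPM, 0.40, edgeR adjusted p = 0.851) did not pass. Gas1, a hedgehog co-receptor, rose (314 against 128 CPM, 1.23, edgeR adjusted p = 1.10e-04), as did Ppfibp1 (0.94). Of 12 nascent mesoderm genes 3 rose, Lefty2 by 2.42, Frzb by 1.47, and Rspo3, a Wnt enhancer. Lower genes were the imprinted long RNA Rian (-2.05), Pim2 (-1.50), Cdh1 (-1.42), the glucose transporters Slc2a3 (-1.24) and Slc2a1 (-1.01, 216 against 446 CPM), Pvrl2 (-1.23) and Bmp4 (-1.84). Of 6 streak genes and of 4 paraxial genes 0 passed. The calls on Ppfibp1, Pim2 and Pvrl2 were each lost without any 1 of 6 of the 7 libraries, and that on Gas1 without the block (edgeR adjusted p = 0.159). Cells with Mesp2 were deeper in 7 of 7 libraries (medians of 33360 to 78584 against 11869 to 51518 transcripts), and lateral and extraembryonic mesoderm markers summed to 165 to 771 CPM (median 337) with Mesp2 and to 295 to 1200 (median 870) without. Definitive endoderm markers summed to 7.64 to 82.1 CPM (median 18.9) and to 55.3 to 337 (median 99.5). The part of depth and of these markers in the result was not tested.

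Likeness across cells was measured as the mean over libraries of the correlation of ln(1 + transcripts per 10000) across the cells of a library, a description that cells' depth and mix also enter. At E6.75, the genes most like Mesp1 (3 libraries) were Snai1 (0.72), T (0.62), Mixl1 (0.61), Sp5 (0.61), Frzb (0.57) and Meis2 (0.55). Those most like Mesp2 (2 libraries) were Mesp1 (0.83), Irx5 (0.79), Snai1 (0.71), Pdgfra (0.70), Frzb (0.69) and Sp5 (0.67). For Mixl1 (5 libraries) they were Sp5 (0.59), T (0.53), Pdgfra (0.48), Frzb (0.48), Eomes (0.44) and Apln (0.44), and for Evx1 (6 libraries) T (0.52), Wnt3 (0.50), Sall3 (0.49), Evx1os (0.49), Fst (0.48) and Sp8 (0.46). The epiblast gene Utf1 had the lowest value for all 4, from -0.33 to -0.40.

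At E7.5, Mesp1 (10 libraries) was most like Snai1, Lefty2 and Pcdh19 (0.46 each), Chst7 and Rasgrp3 (0.43 each) and Fn1 (0.41). Mesp2 (6 libraries) was most like Pcdh8 (0.47), Pcdh19 (0.46), the Notch ligand Dll1 (0.42), Lefty2 (0.41), Chst2 (0.40) and Tmem229a (0.39). Pcdh8 and Dll1 are known from presomitic mesoderm. Mesp1 ranked 19 for Mesp2 (0.31), Mixl1 792 (0.11) and Evx1 1316 (0.08) of 11362 genes. Mixl1 (9 libraries) was most like T (0.52), Evx1os (0.44), Evx1 (0.42), Mesp1 (0.39), Snai1 (0.39) and Chst7 (0.36). Evx1 (10 libraries) was most like Evx1os (0.44), Ccnd2 (0.36) and Nkd1, Mesp1, Fzd10 and Cdx2 (0.34 each). The lowest values were Bex1 (-0.40) for Mesp1, Podxl (-0.34) for Mesp2, Sfrp1 (-0.28) for Mixl1 and Otx2 (-0.35) for Evx1.

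Levels were also correlated over the 11 E7.5 libraries, whose mix of cell types differed, and the part of that mix was not tested. Of 6 pairs, 0 passed by Pearson's r and 1 by Spearman's rho after adjustment. Mixl1 and Evx1 had Pearson's r of 0.74 (permutation p = 0.0140, adjusted 0.0706) and Spearman's rho of 0.90 (permutation p = 0.00026, adjusted 0.00156), and r was 0.86 without replicates 8 and 12. Mesp1 and Mixl1 had r of 0.66 (permutation p = 0.0235, adjusted 0.0706), rho of 0.70 (0.0212, adjusted 0.0635) and r of 0.65 without replicates 4 and 9. For Mesp1 and Evx1 r was 0.43 (adjusted permutation p = 0.361) and 0.26 without those libraries. Mesp1 and Mesp2, which were found together more often than expected within libraries, had r of -0.24 and rho of -0.44 over them.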

How the data were processed

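Single-cell 3′ RNA libraries were analysed from the authors' deposited expected counts of transcripts per gene and barcode. Every nonzero value equalled a whole number of UMIs after a correction for collisions among 4096 UMI sequences, and none was depth normalised. The submitters' processing notes name bcl2fastq 2.17.1.14 and BWA 0.6.2-r126. The counting program, genome build and use of strand are not given in the sources used here. The 4 genes and all gene lists were chosen with earlier results of these data known. The 96 used of 192 barcode columns were kept at 2000 or more nuclear transcripts, and no doublet caller was run on picked or sorted cells. Counts were summed per library (and gate), rounded and fitted with edgeR 4.0.16 (quasi-likelihood test, TMM, filterByExpr), with the library as a block for gates of at least 3 cells in at least 3 libraries. Each gate thus pairs sums of the same library. Gates left out extraembryonic ectoderm-like and visceral endoderm-like cells. Adjusted p-values (Benjamini-Hochberg, threshold 0.05) cover all genes tested. Named genes were the members and, per gate comparison, up to 6 per direction by fold among passing genes with a mean of at least 20 CPM and the same sign in every library. For likeness they were the 6 highest genes found in at least 5% of cells. Genes taken from the lists were named after their values were seen. Clusters came from scanpy 1.11.5 (Leiden, igraph 0.11.9). The fits were tested on simulated data. DESeq2 1.42.0 and other alternatives are described in the closing section. The authors' barcode list was not used.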

Additional observations from a re-analysis of the deposited data

Results flagged for a closer look

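Mesp1 cells with Mesp2 against those without at E7.5 had 1 library far from the others. The log2 ratio of Mesp1 (CPM + 1) was -1.59 in replicate 4, and the nearest of the other 6 was 0.454, a gap of 0.59 of the whole range, above the 95% limit for 7 libraries. Replicate 4 set 3 cells with Mesp2 against 4 without. Chance marks about 5% of such groups, and 24 were examined.

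Transcripts of the 4 genes were also present outside the cells analysed. At E7.5, used barcodes under 2000 transcripts (723 columns with 261788 transcripts in all) held 16 UMIs of Mesp1, 4 of Mesp2, 10 of Mixl1 and 8 of Evx1. The 1152 unused barcode columns, with 119506 transcripts, held 6 of Mesp1, 8 of Mixl1 and 7 of Evx1. At E6.75 the 33 barcodes under the minimum held 1 of Mesp1 and 2 of Evx1.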

How the results depend on the processing

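Gate comparisons were recomputed with RLE scaling, no filter on low counts, DESeq2, no replicate block, observed UMIs, cells of at least 5000 transcripts, extraembryonic ectoderm-like and visceral endoderm-like cells kept, and gates of at least 2 transcripts. For Mixl1 cells at E6.75, 195 genes passed with DESeq2 and 168 without the block, and 153 to 360 without 1 library each. For Mixl1 cells at E7.5 the counts were 413 with no filter, 48 without the block and 79 to 181 without 1 library. After thinning to 2000 transcripts 1 of 220 genes passed, and fewer genes could be tested. For Mesp1 against Mixl1 gates they were 345 with no filter, 68 without the block and 68 to 121 without 1 library. For Mesp1 against Evx1 gates, 367 passed with no filter, 66 without the block and 77 to 110 without 1 library. For Mesp2 in Mesp1 cells, 134 passed with no filter, 10 with DESeq2, 10 without the block and 8 to 32 without 1 library. The genes named there lost their call 10 times under other settings and 25 times without 1 library, and Rian, Slc2a3 and Slc2a1 did not lose theirs. Mixl1 passed there with no filter (edgeR adjusted p = 1.19e-04) and without replicate 10 (log2 difference 1.57, 0.0205). Without the block, Eomes (edgeR adjusted p = 0.107) and Irx3 (0.0722) lost their calls in Mixl1 cells at E7.5. Nptx2 at E6.75 lost its call with visceral endoderm-like cells kept (0.0736), and Fam169a with gates of 2 transcripts (0.110). In those 2 comparisons and the Mesp1 gates, no other member or gene named by rank lost its call in a fit that tested it. Not every fit tested every such gene. For Mixl1 cells at E7.5, Evx1os was tested in 6 of the 9 fits without 1 library. Genes named from the lists were not recomputed. Thinned gates other than Mixl1 at E7.5, and gates of 2 transcripts for Mesp2, could not be fitted. The 3 Mesp gates at E6.75 had 2 libraries where 3 were needed.

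No paired analysis was possible because the 2 stages share no replicate numbers. Between stages, 613 of 2859 genes passed on level after thinning to 2000 transcripts, and 3404 to 3922 without 1 library. On share, 2548 passed at 10000 transcripts, 847 without thinning, 807 at 2 or more transcripts, 777 with the E6.75 libraries numbered 2 alone, and 1232 to 1888 without 1 library. The share difference of Mesp1 did not pass at 1000 transcripts (adjusted exact permutation p = 0.0689), without thinning (0.0746), at 2 or more transcripts (0.330) or, chosen after seeing the data, without extraembryonic ectoderm-like and visceral endoderm-like cells (0.0530). It passed at both larger depths tried (0.0390 and 0.0344). Evx1 passed on level also without E7.5 replicate 7 (0.93, edgeR adjusted p = 0.0484) or 8 (0.92, 0.0429). The cause was not tested.

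Thinning to 2000 transcripts turned the ratio for Mixl1 with Evx1 at E7.5 to -0.35 (1 cell against 1.87 expected, adjusted exact permutation p = 0.857). It gave 0.051 for Mesp1 with Mesp2, 0.32 for Mesp1 with Mixl1 and 0.26 for Mesp1 with Evx1. With at least 2 transcripts Mesp1 with Evx1 had 0.46 (adjusted p = 0.199). Without 1 library each, the E7.5 ratios were 0.69 to 0.84 (Mesp1 with Mesp2), 0.47 to 0.60 (Mesp1 with Mixl1), 0.34 to 0.46 (Mesp1 with Evx1), 0.42 to 0.71 (Mesp2 with Mixl1, which passed without replicate 10), 0.17 to 0.37 (Mesp2 with Evx1) and 0.56 to 0.73 (Mixl1 with Evx1). Library correlations passed with log2(CPM + 10), at 0.75 for Mesp1 with Mixl1 and 0.85 for Mixl1 with Evx1, and at 0.76 for the latter in cells of at least 5000 transcripts. For Mesp2, a single UMI was all that 30 of its 48 E7.5 cells held.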
